A study of Mus musculus with 20 samples.

Results

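The genes described here encode the proteasome and the factors that assemble and regulate it. A gene was taken as a member when a probe set of the array carried exactly 1 gene symbol and that symbol began with Psma, Psmb, Psmc, Psmd, Psme, Psmf or Psmg. Of 17771 genes with such a probe set, 49 met this rule, and the probe set with the highest mean over the 20 arrays stood for each. Psmc3ip, a cofactor of homologous recombination, and Psme3ip1, a binding partner of the Psme3 protein, matched by name only and are no parts of the proteasome. Psme2 is not analysed here, because its probe set also carries the symbol Psme2b.

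The proteasome degrades proteins that were tagged with ubiquitin. Its barrel, the 20S core, has outer rings of alpha subunits (Psma genes) and inner rings of beta subunits (Psmb genes), among which Psmb5, Psmb6 and Psmb7 carry the proteolytic sites. A cap, the 19S particle, holds a base of ATPases (Psmc genes) that unfold substrates and non-ATPase subunits (most Psmd genes) that bind ubiquitin chains and remove them. In blood cells, and elsewhere after interferon, Psmb8, Psmb9 and Psmb10 take the places of Psmb5, Psmb6 and Psmb7 to form the immunoproteasome, known for cutting peptides for MHC class I. Psme1 and Psme2 form the PA28 cap, which opens the barrel in place of the 19S particle.

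RNA levels were measured in eosinophils, granulocytes of allergic inflammation, grown from mouse bone marrow. The marrow came from 5 wild-type (Dusp5+/+) mice and 5 Dusp5-/- mice, which lack a nuclear phosphatase of the kinases ERK1 and ERK2. On culture day 12 the cells of each mouse were either kept in medium alone or given 25 ng/ml of the alarm cytokine IL-33, and both were harvested after 4 hours. This gave 20 arrays, 1 per sample, in 4 groups of 5, and the arrays of a group are numbered by mouse. The sources used here do not name the strain, the age or how the deletion was made. Values are log2 levels as deposited, a level is never set against that of another probe set, and their precision is limited by how many arrays there are. A change is a log2 difference ± SE of the limma fit with n = 5 arrays per group, and rose or fell means a Benjamini-Hochberg adjusted p under 0.05 over the 11766 genes tested.

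The arrays were alike in scale, with medians of 4.25 to 4.32 and correlations within a group of 0.987 to 0.997. Dusp5 itself was at 7.85 or more on each wild-type array and at 5.15 or less on each Dusp5-/- array, so 0 arrays went against their genotype label. The eosinophil granule gene Epx lay at 13.01 to 13.81 on untreated wild-type arrays, and all 6 eosinophil markers with a probe set exceeded the dim percentile, the 40th of each array, on all 20 arrays. Markers of other cells were present too: all 7 neutrophil, 9 monocyte, macrophage and dendritic and 6 mast cell and basophil markers with a probe set passed the dim filter. With IL-33 the mean of the eosinophil list went from 11.19 to 11.35 down to 10.83 to 11.07 in wild-type cells, and from 11.19 to 11.43 down to 10.82 to 11.01 in Dusp5-/- cells. Siglecf (down by 0.71 ± 0.15 and 0.61 ± 0.15) and Il5ra (0.84 ± 0.16 and 1.08 ± 0.16) fell in both genotypes. Csf1r (0.62 ± 0.13 and 0.54 ± 0.13) and Adgre1 (0.70 ± 0.18 and 0.66 ± 0.18), of the monocyte, macrophage and dendritic list, rose, and which cells made this RNA was not tested. In all, 2 of 6 eosinophil markers fell in each genotype, 2 of 9 monocyte, macrophage and dendritic markers rose in each (with Cd68 falling in Dusp5-/- cells), and 0 of 7 neutrophil markers passed. Of the mast cell and basophil markers 2 of 6 fell in wild-type and 3 of 6 in Dusp5-/- cells, and 1 of 4 lymphocyte markers (Cd3e) rose in wild-type cells. Of the erythroid markers Klf1 fell in Dusp5-/- cells and Hba-a1 was below the dim percentile on all 20 arrays. The part of these shifts in the results below was not tested. In bulk cultures fewer cells of a type and less RNA per cell cannot be told apart.

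IL-33 moved the proteasome genes in both directions. Of the 44 members bright enough to test, 15 rose and 5 fell in wild-type cells, which is 34.1% and 11.4%. Over all genes tested the shares were 16.1% rising and 26.7% falling, or 42.7% called in either direction. In Dusp5-/- cells 17 members rose and 8 fell (38.6% and 18.2%), beside 18.9% and 33.2% of all genes, or 52.2% in either direction. Without Psmc3ip and Psme3ip1, a subset chosen after seeing the data, 15 of 42 rose and 5 fell in wild-type cells (35.7% and 11.9%). In Dusp5-/- cells 17 of these 42 rose and 6 fell (40.5% and 14.3%). Fitted within mice (mouse as a fixed block), 16 members rose and 8 fell in wild-type cells, beside 20.8% and 37% of all genes in that fit. Psmb6 was added to the rises and Psmc3, Psmg1 and Psmg2 to the falls. In Dusp5-/- cells this fit called 20 rises and 10 falls, beside 23.5% and 42% of all genes, with Psma1, Psma7 and Psmb6 added to the rises and Psmc3 and Psmg2 to the falls. The members' median change was 0.09 in wild-type and 0.07 in Dusp5-/- cells, against -0.05 and -0.08 over all genes tested. The arrays of the 2 groups did not overlap for 12 members in wild-type cells (8 higher, 4 lower after IL-33) and for 20 in Dusp5-/- cells (13 and 7), where 28.3% and 38.5% of all genes tested had no overlap. In both genotypes 14 members rose and 5 fell, 6 were called only in Dusp5-/- cells and 1 only in wild type, a difference that was not itself called for any of them, 18 were called in neither, and 0 were called in opposite directions. Psmc3ip and Psme3ip1 are among the 6 called only in Dusp5-/- cells. Of the 41 members above the dim percentile on all 20 arrays, 14 rose and 4 fell in wild-type cells and 16 rose and 7 fell in Dusp5-/- cells, a subset chosen after seeing the data. Of the 10203 genes that bright, 16.7% rose and 28.9% fell in wild-type cells and 19.5% and 35.9% in Dusp5-/- cells.

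**Figure D1:**
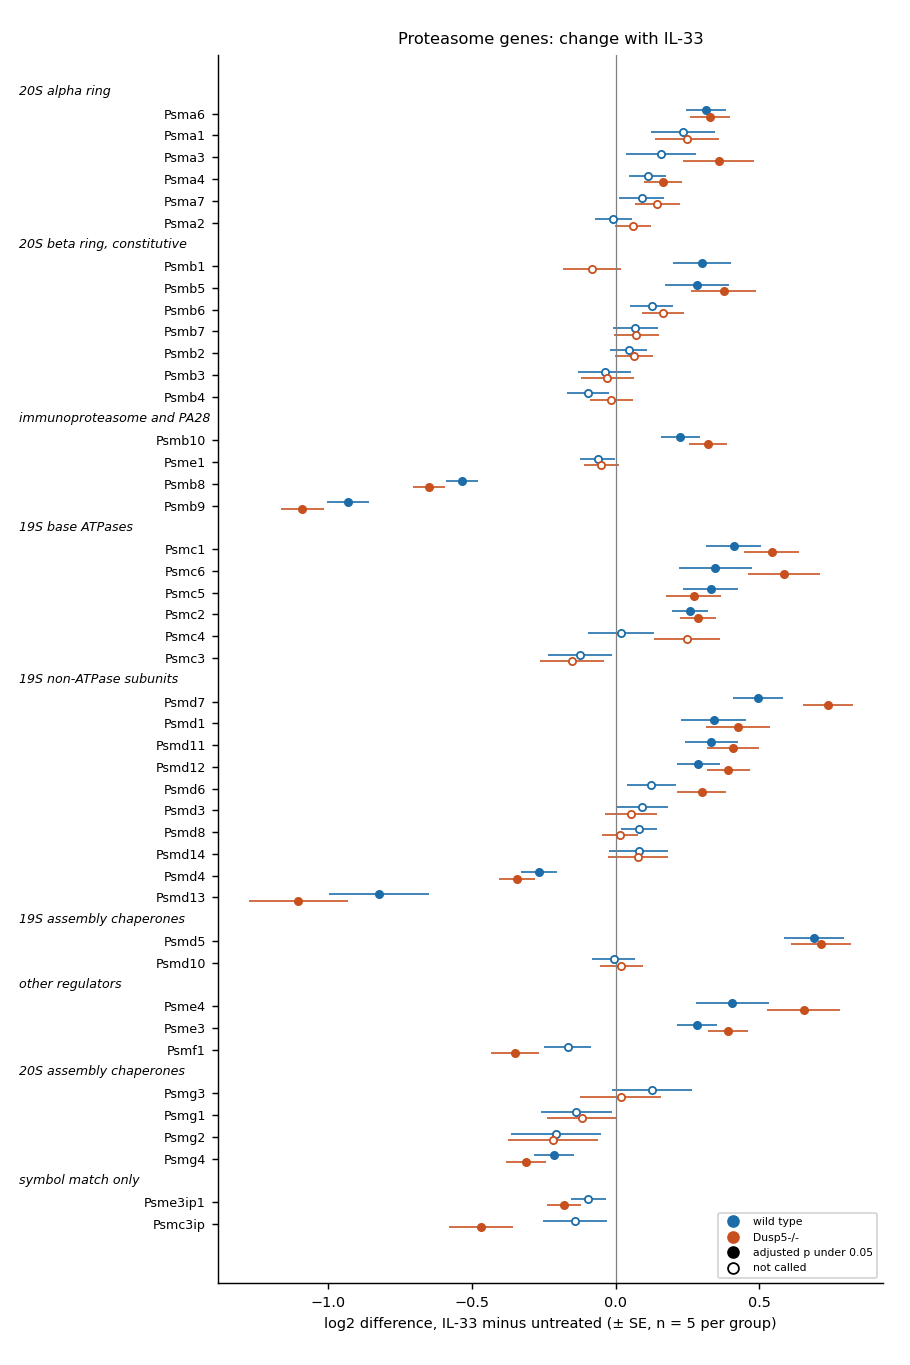
Log2 difference between IL-33 and untreated arrays (x axis, ± SE of the limma fit, 5 arrays per group) for the 44 tested members by role, in wild-type (blue) and Dusp5-/- cells (orange). Filled points passed an adjusted p of 0.05. Most filled points lie to the right, led by Psmd5 and Psmd7, while Psmb9, Psmd13 and Psmb8 lie farthest to the left in both genotypes.

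The immunoproteasome members did not move together. Of the 4 with a probe set of their own, 2 fell, 1 rose and 1 did not pass in either genotype, with a median change of -0.30 in wild-type and -0.35 in Dusp5-/- cells. Of the 40 other members tested, 14 rose and 3 fell in wild-type cells and 16 rose and 6 fell in Dusp5-/- cells, with medians of 0.10 and 0.11. The 6 falls include Psmc3ip and Psme3ip1, which are no parts of the proteasome. These counts and medians are a description, since 4 genes give no test of the group.

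Psmb9, the inducible subunit that replaces Psmb6, showed the largest fall among them. In wild-type cells its level (probe set 1450696_at) was 8.94, 8.93, 8.92, 9.06 and 8.85 untreated and 8.08, 7.99, 7.97, 8.09 and 7.93 after IL-33, mice 1 to 5 in order. The Dusp5-/- values were 8.86, 8.96, 8.73, 9.01 and 8.98 untreated and 7.81, 7.86, 7.57, 7.96 and 7.89 after IL-33. Each of the 10 mice had the lower value after IL-33, the groups were far from overlapping, and the changes within mice ran only from -1.16 to -0.86. The fall was 0.93 ± 0.07 in wild-type cells, or 1.91-fold (adjusted p = 3.8e-09, limma), and 1.09 ± 0.07 in Dusp5-/- cells, or 2.13-fold (adjusted p = 2.5e-10).

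Psmb8, which takes the place of Psmb5, fell less. Its wild-type level (probe set 1422962_a_at) was 10.36, 10.25, 10.33, 10.30 and 10.37 untreated and 9.82, 9.80, 9.76, 9.86 and 9.70 after IL-33. The Dusp5-/- level was 10.34, 10.19, 10.35, 10.38 and 10.34 untreated and 9.75, 9.62, 9.70, 9.71 and 9.59 after IL-33. Again all 10 mice were lower after IL-33 and the treated and untreated arrays stood clear of each other, although untreated Dusp5-/- array 2 was below the rest of its group. The fall was 0.54 ± 0.06 in wild-type cells (adjusted p = 1.7e-07) and 0.65 ± 0.06 in Dusp5-/- cells (adjusted p = 7.2e-09, limma), which is 1.45-fold and 1.57-fold.

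Psmb9 and Psmb8 lie on either side of the peptide transporter gene Tap1 in the major histocompatibility region of chromosome 17, and Psmb9 and Tap1 are read in opposite directions from 1 shared interval. The sequences before these starts are shown because both genes fell with IL-33. Around the group means Psmb8 and Psmb9 did not vary together (Pearson r of -0.07 over 20 arrays). They come from the RefSeq promoter table (GRCm38.p6). For Psmb9 the stretch is the whole 225 bases between its start and Tap1, chr17:34187331-34187555, minus strand, with capitals marking a CCAAT box read on the opposite strand. For Psmb8 it is the 250 bases before the start, chr17:34197945-34198194, plus strand, in which no motif searched was found. The motifs searched, on both strands, were the interferon-stimulated element, the CNC antioxidant element TGACNNNGC, the CCAAT box and the NF-kB element. Neither stretch held the interferon-stimulated element, TGACNNNGC or the NF-kB element, and no match says only that these letters are not in the window.
Psmb9: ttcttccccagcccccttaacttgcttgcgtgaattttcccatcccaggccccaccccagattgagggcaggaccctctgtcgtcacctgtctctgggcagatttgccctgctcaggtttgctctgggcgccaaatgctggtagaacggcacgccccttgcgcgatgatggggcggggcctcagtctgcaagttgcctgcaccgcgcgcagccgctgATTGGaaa
Psmb8: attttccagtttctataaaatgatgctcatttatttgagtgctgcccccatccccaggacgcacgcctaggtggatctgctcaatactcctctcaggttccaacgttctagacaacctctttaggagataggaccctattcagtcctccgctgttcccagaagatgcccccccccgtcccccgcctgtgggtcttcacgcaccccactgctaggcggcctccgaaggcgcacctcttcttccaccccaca

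The third inducible subunit, Psmb10, rose. It stood at 8.38, 8.27, 8.51, 8.36 and 8.20 on untreated and 8.58, 8.52, 8.64, 8.63 and 8.47 on IL-33 arrays of wild-type cells. The knockout arrays stood at 8.17, 8.19, 8.19, 8.32 and 8.34 untreated and 8.64, 8.44, 8.58, 8.50 and 8.64 after IL-33. Every mouse had the higher value after IL-33, with slight overlap of the groups in wild-type and none in Dusp5-/- cells. The rise was 0.23 ± 0.07 (adjusted p = 0.0096) in wild-type and 0.32 ± 0.07 (adjusted p = 4.2e-04, limma) in Dusp5-/- cells. Psme1, a subunit of the PA28 cap, did not pass in either genotype. Its level was 10.77 ± 0.07 (SD, n = 5) untreated and 10.71 ± 0.12 after IL-33 in wild-type cells, a change of -0.06 ± 0.06 (adjusted p = 0.42), and the change in Dusp5-/- cells was -0.05 ± 0.06 (adjusted p = 0.50, limma). Here the groups overlapped broadly, and 7 of 10 mice were lower after IL-33.

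The constitutive counterparts went up or did not pass. Psmb5, the chymotrypsin-like site, was at 10.76, 10.39, 10.72, 10.76 and 10.71 untreated and 11.06, 10.82, 10.85, 11.02 and 10.99 after IL-33 in wild-type cells. Its Dusp5-/- level was 10.78, 10.27, 10.81, 10.35 and 10.41 untreated and 11.13, 10.80, 11.06, 10.75 and 10.76 after IL-33. All 10 mice were higher after IL-33, by 0.28 ± 0.11 on average in wild-type (adjusted p = 0.048) and 0.38 ± 0.11 in Dusp5-/- cells (adjusted p = 0.0083, limma). The wild-type call is narrow, although it was kept with mouse as a fixed or random block. It was lost with no dim filter (0.0638), with quantile normalization (0.0721) and with arrays centred on their median (0.0724). It was also lost without any 1 of untreated wild-type arrays 1, 2, 3 and 5, IL-33 wild-type arrays 1, 4 and 5, untreated Dusp5-/- array 5 and IL-33 Dusp5-/- arrays 2 and 5, or without any wild-type mouse or Dusp5-/- mouse 4 or 5, with limma adjusted p of 0.0506 to 0.133. Psmb6, the caspase-like site, was at 10.06 ± 0.08 untreated and 10.18 ± 0.07 after IL-33 in wild-type cells and at 9.95 ± 0.10 and 10.11 ± 0.15 in Dusp5-/- cells (SD, n = 5). It was higher after IL-33 in each of the 10 mice, by 0.12 ± 0.07 (adjusted p = 0.19) and 0.16 ± 0.07 (adjusted p = 0.068). Fitted within mice it passed in wild-type (adjusted p = 0.0351) and Dusp5-/- cells (adjusted p = 0.0073, limma), as it did without IL-33 Dusp5-/- array 4 in the latter (0.0407). Psmb7, the trypsin-like site, changed by 0.07 ± 0.08 (adjusted p = 0.51) and 0.07 ± 0.08 (adjusted p = 0.46), and its groups overlapped.

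Set against their counterparts within each mouse, Psmb8 and Psmb9 showed a clearly unequal change, and Psmb10 a smaller and less even one. The IL-33 change of Psmb8 minus that of Psmb5 was -0.82 ± 0.12 (SD, n = 5 mice) in wild-type and -1.02 ± 0.10 in Dusp5-/- cells. The change of Psmb9 minus that of Psmb6 was -1.06 ± 0.08 and -1.26 ± 0.09. In both pairs all 10 mice lay on the same side, between -1.11 and -0.70 for Psmb8 and between -1.36 and -0.97 for Psmb9. For Psmb10 minus Psmb7 the difference was 0.16 ± 0.13 and 0.25 ± 0.13, above 0 in 9 of 10 mice. The differences describe RNA on separate probe sets and give no ratio of the subunits.

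**Figure D2:**
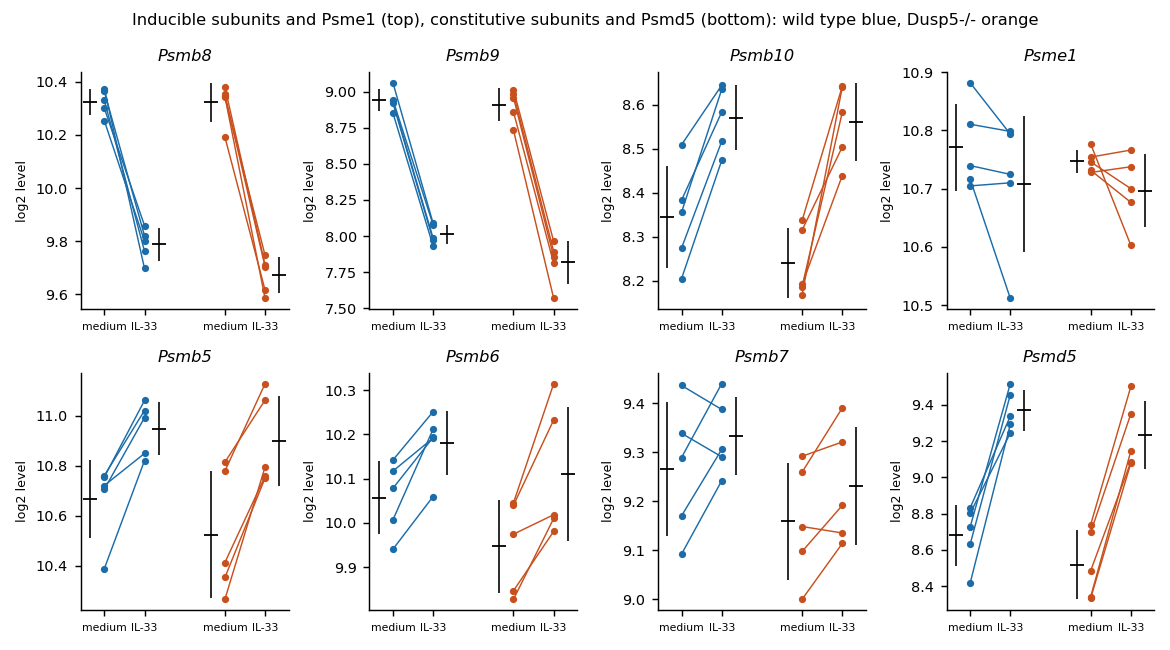
Log2 level (y axis, scale differs between panels) of the inducible subunits Psmb8, Psmb9 and Psmb10 and of Psme1 (top) and of Psmb5, Psmb6, Psmb7 and the chaperone Psmd5 (bottom), untreated (medium) and after IL-33. Each line joins the arrays of 1 mouse, wild-type in blue and Dusp5-/- in orange, and black marks give the mean ± SD of 5 arrays. All 10 lines fall for Psmb8 and Psmb9 and all 10 rise for Psmb10, Psmb5, Psmb6 and Psmd5, while those of Psme1 and Psmb7 go both ways.

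Among the alpha subunits, which form the gate of the barrel, 1 of 6 tested rose in wild-type cells and 3 of 6 in Dusp5-/- cells, and 0 fell. Psma6 rose in both, from 11.32 ± 0.12 (SD, n = 5) to 11.63 ± 0.07 in wild-type cells (adjusted p = 0.0012) and from 11.21 ± 0.09 to 11.54 ± 0.11 in Dusp5-/- cells (adjusted p = 6.2e-04, limma). Its treated and untreated arrays did not overlap in either genotype. Psma3 (0.36 ± 0.12, adjusted p = 0.019) and Psma4 (0.16 ± 0.07, adjusted p = 0.042) rose in Dusp5-/- cells. Their wild-type changes were 0.16 ± 0.12 and 0.11 ± 0.07 (adjusted p = 0.32 and 0.18), and the difference between the genotypes' responses did not pass for either (adjusted p = 0.999 and 0.999, limma). The level of Psma3 was low, at 4.20 to 5.12 over the arrays, and its call was lost without Dusp5-/- mouse 1 (0.0692), 2 (0.0641) or 3 (0.0789). That of Psma4 was lost with no dim filter (0.0663), quantile normalization (0.109), arrays centred on their median (0.0795) or only the 2 groups fitted (0.0638). It was also lost without untreated Dusp5-/- array 2, 4 or 5, IL-33 Dusp5-/- array 1 or 3, wild-type mouse 4 or 5, or any Dusp5-/- mouse (limma adjusted p of 0.0513 to 0.118). Given a random mouse effect, Psma1 (0.23, adjusted p = 0.0340, and 0.25, adjusted p = 0.0224) passed in both genotypes and Psma7 (0.15, adjusted p = 0.0322, and 0.0421 within mice) in Dusp5-/- cells. Psma1 passed also in wild-type cells without wild-type mouse 3 (0.0447). In Dusp5-/- cells it passed within mice (0.0495), with quantile normalization (0.0349), and without untreated Dusp5-/- array 4, IL-33 wild-type array 2, IL-33 Dusp5-/- array 5, wild-type mouse 2 or Dusp5-/- mouse 5 (0.0182 to 0.0411). Psma2 hardly moved, at -0.01 ± 0.06 and 0.06 ± 0.06, on arrays between 11.34 and 11.66. Of the 7 constitutive beta subunits, the 4 without a proteolytic site were Psmb1, Psmb2, Psmb3 and Psmb4. Psmb1 rose in wild-type cells (0.30 ± 0.10, adjusted p = 0.022) and was at -0.08 ± 0.10 in Dusp5-/- cells (adjusted p = 0.51), but its level of 3.81 to 4.55 lay close above the dim percentile of 3.56 to 3.68. The Psmb1 call was lost without untreated wild-type array 4, IL-33 wild-type array 1 or 3, or wild-type mouse 3 or 4 (adjusted p of 0.0553 to 0.0948, limma). Psmb2 (0.05 ± 0.06 and 0.06 ± 0.06), Psmb3 (-0.04 ± 0.09 and -0.03 ± 0.09) and Psmb4 (-0.10 ± 0.07 and -0.02 ± 0.07) did not pass.

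In the 19S base 4 of the 6 ATPases rose in each genotype, and 0 fell. Psmc1 went from 8.76, 8.62, 8.98, 8.74 and 8.82 to 9.33, 9.04, 9.18, 9.22 and 9.19 in wild-type cells. The Dusp5-/- arrays went from 8.81, 8.34, 8.73, 8.50 and 8.59 to 9.31, 8.92, 9.30, 9.08 and 9.08. The treated arrays were above the untreated arrays without exception, and the rise was 0.41 ± 0.10 (adjusted p = 0.0016) and 0.54 ± 0.10 (adjusted p = 8.1e-05, limma). Psmc2 rose by 0.26 ± 0.06 and 0.29 ± 0.06 (adjusted p = 0.0022 and 7.0e-04), again with no overlap. Psmc5 rose by 0.33 ± 0.10 and 0.27 ± 0.10 (adjusted p = 0.0082 and 0.022), the latter call being lost without untreated Dusp5-/- array 2 or 4, IL-33 Dusp5-/- array 1 or 3, or Dusp5-/- mouse 5 (0.0555 to 0.0661). Psmc6 rose by 0.59 ± 0.13 in Dusp5-/- cells (adjusted p = 6.5e-04), where untreated arrays lay at 5.81 to 6.33 and treated ones at 6.50 to 6.66. In wild-type cells Psmc6 rose by 0.35 ± 0.13 (adjusted p = 0.033) with overlapping arrays, a call lost with only the 2 groups fitted (0.0751), without untreated wild-type array 3, 4 or 5, without IL-33 wild-type array 3 or 5, and without wild-type mouse 3 or 5 (limma adjusted p of 0.0622 to 0.171). Psmc4 did not pass (0.02 ± 0.11 and 0.25 ± 0.11, adjusted p = 0.92 and 0.076). The Dusp5-/- change passed given a random mouse effect (0.0247), without IL-33 wild-type array 3 (0.0454), without IL-33 Dusp5-/- array 4 (0.0175) and without wild-type mouse 3 (0.0435) or Dusp5-/- mouse 4 (0.0367). Psmc3 went the other way, lower after IL-33 in 10 of 10 mice by 0.05 to 0.25, and did not pass (-0.13 ± 0.11 and -0.15 ± 0.11, adjusted p = 0.39 and 0.26, limma). Fitted within mice, Psmc3 passed as a fall in wild-type (adjusted p = 0.0286) and Dusp5-/- cells (adjusted p = 0.0094).

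The 19S non-ATPase subunits were divided. Of 10 tested, 4 rose and 2 fell in wild-type cells and 5 rose and 2 fell in Dusp5-/- cells. Psmd7, which pairs with the deubiquitinase Psmd14 in the lid, was at 7.86, 7.57, 7.66, 7.43 and 7.78 untreated and 8.29, 8.23, 7.96, 8.11 and 8.19 after IL-33 in wild-type cells. The Dusp5-/- arrays were at 7.68, 7.49, 7.73, 7.59 and 7.57 and 8.49, 8.36, 8.43, 8.31 and 8.16. The groups stood apart in both genotypes, and Psmd7 rose by 0.49 ± 0.09 (adjusted p = 1.1e-04) and 0.74 ± 0.09 (adjusted p = 5.8e-07, limma), or 1.41-fold and 1.67-fold. Its partner Psmd14 changed by 0.08 ± 0.10 and 0.08 ± 0.10 and did not pass (adjusted p = 0.56 and 0.55). The base scaffold Psmd1 (0.34 ± 0.11 and 0.43 ± 0.11) and the lid subunits Psmd11 (0.33 ± 0.09 and 0.41 ± 0.09) and Psmd12 (0.29 ± 0.07 and 0.39 ± 0.07) rose in both genotypes, with adjusted p of 0.018 or less. The wild-type call of Psmd1 was lost without untreated array 4, IL-33 array 1, or mouse 2, 4 or 5 (0.0536 to 0.0753). The lid subunit Psmd6 rose in Dusp5-/- cells (0.30 ± 0.09, adjusted p = 0.0059) and was at 0.12 ± 0.09 in wild-type cells (adjusted p = 0.26, limma). Psmd3 and Psmd8, also of the lid, did not pass and lay between 0.01 and 0.09.

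Psmd4, a ubiquitin receptor of the cap, fell. Its wild-type level was 10.21, 10.21, 10.15, 10.26 and 10.15 untreated and 10.07, 9.95, 9.77, 10.003 and 9.86 after IL-33. The Dusp5-/- level was 10.19, 10.24, 10.09, 10.23 and 10.11 untreated and 9.96, 9.81, 9.76, 9.83 and 9.79 after IL-33. Each treated array was below every untreated array of its genotype, and the fall was 0.27 ± 0.06 (adjusted p = 0.0019) and 0.34 ± 0.06 (adjusted p = 1.3e-04, limma). Psmd13, a lid subunit, fell by 0.82 ± 0.17 (adjusted p = 6.9e-04) and 1.10 ± 0.17 (adjusted p = 2.3e-05), but on a dim probe set. It was above the dim percentile on 10 of 20 arrays, at 3.59 to 4.31 untreated and 2.77 to 3.50 treated in wild-type cells and at 3.95 to 4.38 and 2.72 to 3.68 in Dusp5-/- cells. Counting arrays below the percentile as if at it, the fall was at least 1.23-fold in wild-type and at least 1.48-fold in Dusp5-/- cells.

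The largest rise in wild-type cells was that of Psmd5, a chaperone of 19S base assembly. Psmd5 was at 8.73, 8.42, 8.80, 8.63 and 8.83 untreated and 9.52, 9.29, 9.24, 9.46 and 9.34 after IL-33 in wild-type cells. In Dusp5-/- cells it was at 8.74, 8.33, 8.70, 8.34 and 8.49 untreated and 9.50, 9.08, 9.35, 9.15 and 9.09 after IL-33. No treated array came down to the level of an untreated one, and within mice the rise ran from 0.44 to 0.88. It averaged 0.69 ± 0.10 in wild-type (adjusted p = 2.2e-05) and 0.71 ± 0.10 in Dusp5-/- cells (adjusted p = 9.7e-06, limma), 1.61-fold and 1.64-fold. Psmd10, another chaperone of the base, did not pass (-0.01 ± 0.08 and 0.02 ± 0.08, adjusted p = 0.95 and 0.85).

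The chaperones of 20S assembly did not share this rise, and 0 of 4 rose in either genotype. Psmg4 fell from 7.85 ± 0.10 (SD, n = 5) to 7.63 ± 0.11 in wild-type (adjusted p = 0.016) and from 7.83 ± 0.12 to 7.52 ± 0.05 in Dusp5-/- cells (adjusted p = 8.6e-04, limma). The wild-type call was lost with quantile normalization (adjusted p = 0.108) and without wild-type mouse 1 (0.0626) or 5 (0.0612). Psmg1 and Psmg2, which act as a pair on the alpha ring, were lower after IL-33 in all 10 mice without passing. Psmg1 changed by -0.14 ± 0.12 and -0.12 ± 0.12 (adjusted p = 0.39 and 0.43), and Psmg2 by -0.21 ± 0.16 and -0.22 ± 0.16 (adjusted p = 0.30 and 0.25). Fitted within mice, Psmg2 passed as a fall in both genotypes (adjusted p = 0.0059 and 0.0037) and Psmg1 in wild-type cells (adjusted p = 0.0497, limma). Psmg3, the partner of Psmg4, was dim and did not pass (0.13 ± 0.14 and 0.02 ± 0.14).

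Of the other regulators, Psme3, which encodes the nuclear PA28 gamma cap, rose. Wild-type arrays lay at 6.38 to 6.49 untreated and 6.55 to 6.92 after IL-33, and Dusp5-/- arrays at 6.28 to 6.44 and 6.64 to 6.85. No arrays overlapped, and the rise was 0.28 ± 0.07 (adjusted p = 0.0025) and 0.39 ± 0.07 (adjusted p = 8.9e-05, limma). Psme4, of the PA200 cap, rose by 0.41 ± 0.13 (adjusted p = 0.014) and 0.65 ± 0.13 (adjusted p = 2.4e-04). Its level was low, 3.39 to 3.87 on untreated and 3.84 to 4.23 on treated wild-type arrays, and the wild-type call was lost without mouse 2 (0.0919) or 3 (0.0614). Psmf1, the inhibitor PI31, fell in Dusp5-/- cells (-0.35 ± 0.08, adjusted p = 0.0014) and was at -0.17 ± 0.08 in wild-type cells (adjusted p = 0.11, 0.0360 given a random mouse effect, limma). The genes that matched by symbol only both fell in Dusp5-/- cells, Psmc3ip by 0.47 ± 0.11 (adjusted p = 0.0015) and Psme3ip1 by 0.18 ± 0.06 (adjusted p = 0.017). The call of Psme3ip1 was lost with quantile normalization (0.0788), without IL-33 Dusp5-/- array 3 (0.0569) and without Dusp5-/- mouse 3 (0.0866).

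A further 5 members were below the dim percentile on all 20 arrays and were not tested. They were the alpha subunit Psma5, the testis form Psma8, the thymus form Psmb11, the 19S base scaffold Psmd2 and the assembly chaperone Psmd9. Their group means ran from 2.36 (Psma5, untreated wild type) to 3.15 (Psma8, wild type after IL-33). Psma5 is a part of the 20S core and Psmd2 of the 19S cap, and whether these low values belong to the probe sets was not tested. Of the tested members, Psmd13, Psme4 and Psmg3 were below the percentile on some arrays.

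Motifs before the members' starts were counted as a description. A 250-base stretch from the RefSeq table (GRCm38.p6) was searched for 41 of the 49 members, and none for Psma8, Psmb1, Psmb2, Psmb7, Psmc3, Psmd3, Psmd7 and Psmg2. Members' stretches on a chromosome left out of this search were not used, while the count over all stretches kept that chromosome. A member without a stretch here is thus not shown to be absent from RefSeq. TGACNNNGC, the element bound by CNC factors such as the product of Nfe2l1, stood in 5 of the 41 (12.2%) and in 10.2% of all 32851 stretches. CCAAT stood in 16 of 41 (39.0%) and in 33.9% of all, the NF-kB element in 6 (14.6%) and 7.25%, and the interferon-stimulated element in 3 (7.32%) and 2.98%. Members were counted by gene, over 44 stretches, and the shares of all by stretch. A member with several stretches thus had more chances of a match, which raises the members' shares. Of the 13 members with a stretch that rose in both genotypes, 3 held TGACNNNGC, and 0 of the 5 that fell in both did. The matches of these 3, Psmb5, Psmc6 and Psmd12, and that of Psmb6 are printed with their flanks, because Nfe2l1 itself changed. Capitals mark TGACNNNGC, which in Psmc6 and Psmd12 is read on the opposite strand. The stretches are chr14:54618008-54618068 (minus strand), chr11:70525322-70525356, chr14:45329574-45329631 and chr11:107479278-107479315 (plus strand).
Psmb5: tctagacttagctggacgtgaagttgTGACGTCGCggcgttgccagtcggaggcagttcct
Psmb6: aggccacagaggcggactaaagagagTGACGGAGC
Psmc6: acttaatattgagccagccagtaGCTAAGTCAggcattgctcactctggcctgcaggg
Psmd12: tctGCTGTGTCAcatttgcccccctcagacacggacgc

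Partners of the proteasome were counted from a list of 28 names, of which 18 had a probe set and 17 were tested. In each genotype 7 rose and 3 fell, where 16.1% of all genes rose and 26.7% fell in wild-type and 18.9% and 33.2% in Dusp5-/- cells. Nfe2l1, the transcription factor that drives proteasome subunit genes when proteasome capacity is short, was at 8.24, 8.34, 8.55, 8.53 and 8.45 untreated and 9.64, 9.41, 9.68, 9.61 and 9.67 after IL-33 in wild-type cells. In Dusp5-/- cells it was at 8.51, 8.35, 8.36, 8.44 and 8.39 untreated and 9.61, 9.35, 9.48, 9.40 and 9.48 after IL-33. The rise was more than the whole spread of either group, 1.18 ± 0.07 (adjusted p = 7.5e-11) and 1.06 ± 0.07 (adjusted p = 2.8e-10, limma). Ngly1, the glycanase that helps to activate the Nfe2l1 protein, fell by 0.54 ± 0.14 and 0.63 ± 0.14 (adjusted p = 0.0043 and 8.5e-04). The deubiquitinases of the 19S cap went opposite ways. Uchl5 fell by 0.60 ± 0.09 and 0.72 ± 0.09 (adjusted p = 2.3e-05 and 1.6e-06), and Usp14 rose by 0.38 ± 0.10 and 0.58 ± 0.10 (adjusted p = 0.0042 and 6.9e-05, limma). The shuttle factor Ubqln1 rose by 0.45 ± 0.09 and 0.60 ± 0.09 (adjusted p = 3.4e-04 and 1.0e-05). Pomp, the maturation factor of the 20S core, did not pass (0.03 ± 0.05 and 0.10 ± 0.05, adjusted p = 0.68 and 0.12, limma). Given a random mouse effect its Dusp5-/- change passed (adjusted p = 0.0384), and all 5 Dusp5-/- mice were higher. Usp14 and Pomp were chosen after their values were seen.

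Genes of MHC class I antigen processing were counted from a list of 14 names, of which 12 had a probe set and 10 were tested. In wild-type cells 2 rose and 2 fell, beside 16.1% and 26.7% of all genes, and in Dusp5-/- cells 2 rose and 3 fell, beside 18.9% and 33.2%. These counts are near the background. Irf1, the interferon regulatory factor known to drive Psmb9 and Tap1, fell by 0.66 ± 0.10 (adjusted p = 2.0e-05) and 0.84 ± 0.10 (adjusted p = 6.8e-07). Tap2, the second transporter gene of the Psmb8 and Psmb9 cluster, fell by 0.63 ± 0.08 (adjusted p = 4.3e-06) and 0.73 ± 0.08 (adjusted p = 4.1e-07, limma), and its treated and untreated arrays did not overlap. Tap1 was below the dim percentile on all 20 arrays. The class I heavy chain H2-D1, of a family of near-identical genes that its probe set may not tell apart, rose by 0.34 ± 0.10 and 0.41 ± 0.10 (adjusted p = 0.0087 and 0.0017). Its light chain B2m rose by 0.17 ± 0.07 and 0.22 ± 0.07 (adjusted p = 0.042 and 0.0078), and the wild-type call of B2m was lost in 14 of the alternatives run (adjusted p of 0.0539 to 0.161), among them without any 1 of untreated arrays 1, 3, 4 and 5 or IL-33 arrays 2, 4 and 5, without wild-type mouse 3, 4 or 5, and without Dusp5-/- mouse 5. With mouse as a fixed or random block the B2m call was kept. Nlrc5, the class I transactivator, fell in Dusp5-/- cells (-0.21 ± 0.08, adjusted p = 0.033), a call lost with quantile normalization (0.18) and without untreated Dusp5-/- array 4 or 5, IL-33 Dusp5-/- array 1, 2 or 3, or any Dusp5-/- mouse (limma adjusted p of 0.0501 to 0.0968).

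**Figure D3:**
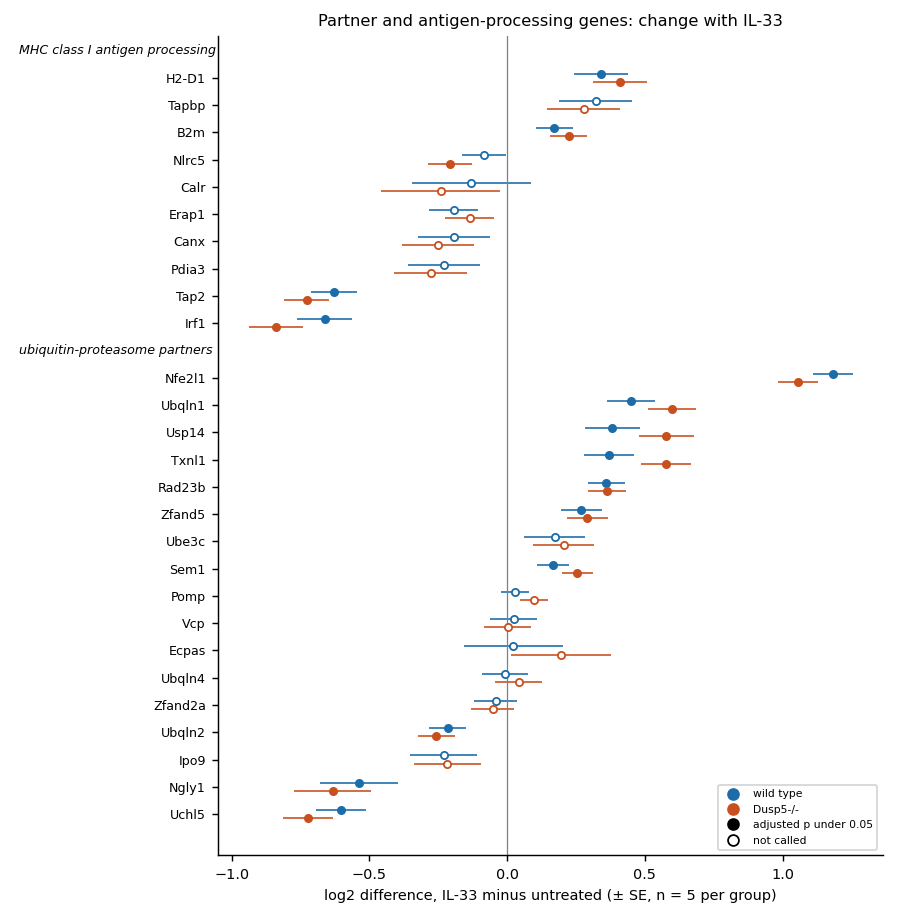
Log2 difference between IL-33 and untreated arrays (x axis, ± SE of the limma fit, 5 arrays per group) for the tested genes of the lists of MHC class I antigen processing (top) and of ubiquitin-proteasome partners (bottom), in wild-type (blue) and Dusp5-/- cells (orange). Filled points passed an adjusted p of 0.05. Nfe2l1 lies farthest to the right, and Irf1, Tap2 and Uchl5 lie to the left in both genotypes.

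Between the genotypes the members' differences spanned a smaller range than those with IL-33. Untreated, 11 of 44 members were above 0 (Dusp5-/- minus wild type), with a median of -0.07. Over all genes tested 5736 of 11766 were above 0, with a median of -0.005. After IL-33 it was 13 of 44 members (median -0.05) and 5074 of 11766 genes (median -0.03). This tilt was not tested. In untreated cells the differences, Dusp5-/- minus wild type, ran from -0.33 (Psmg2) to 0.29 (Psmd13), and 0 of 44 members passed in limma, beside 0.0255% of all genes tested (0.017% higher and 0.0085% lower in Dusp5-/- cells). At an unadjusted p of 0.05, 0 members were higher and 3 lower, namely Psmg2 (-0.33 ± 0.16), Psmc3 (-0.25 ± 0.11) and Psmc3ip (-0.28 ± 0.11), each with an adjusted p of 0.383. At that threshold 5.37% of all genes tested were higher and 7.52% lower, so the members' count is near the background. The arrays of the genotypes overlapped for every tested member, where 1.1% of all genes tested had no overlap. Without wild-type mouse 2, Psmc3ip passed (-0.38, adjusted p = 0.0434). After IL-33, 0 members were higher and 1 was lower in Dusp5-/- cells, beside 2.21% of all genes (0.986% higher and 1.22% lower). Over all genes the split of 116 higher and 144 lower became 151 and 72 with quantile normalization and 93 and 68 with arrays centred on their median. At an unadjusted p of 0.05, 3 members were higher (Psma3, Psmd7 and Psme4) and 5 lower (Psmb1, Psmb9, Psmc3, Psmc3ip and Psmg2), beside 7.53% and 16.6% of all genes tested, again near the background.

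The member that passed after IL-33 was Psmc3ip, the recombination cofactor. Its level was low, at 4.43 to 5.42 over the arrays, near the array medians of 4.25 to 4.32. After IL-33 it was at 5.27, 4.83, 5.25, 4.95 and 5.10 in wild-type and at 4.49, 4.50, 4.51, 4.46 and 4.43 in Dusp5-/- cells. Untreated it was at 5.29, 4.81, 5.19, 5.42 and 5.39 and 5.22, 4.74, 4.82, 4.99 and 4.95. The treated Dusp5-/- arrays were below all others and nearly alike, and this was the 1 member whose arrays did not overlap between the genotypes after IL-33, beside 3.32% of all genes tested. The difference was -0.60 ± 0.11 (adjusted p = 0.012, limma), and the call was lost without wild-type mouse 1 (0.0625) or 5 (0.0516) or Dusp5-/- mouse 4 (0.0527) or 5 (0.0533). Without Psmc3ip, 0 members passed. Psmb9 was lower in Dusp5-/- cells after IL-33 by 0.19 and Psmb8 by 0.12, and neither passed (adjusted p = 0.13 and 0.21). Psma3 (0.43 ± 0.12, adjusted p = 0.063) and Psme4 (0.42 ± 0.13, adjusted p = 0.078) were the highest. Without IL-33 wild-type array 2, Psma3 (0.58, adjusted p = 0.0023) and Psme4 (0.46, adjusted p = 0.0308) were higher and Psmb1 (-0.35, adjusted p = 0.0339) and Psmc3 (-0.35, adjusted p = 0.0460, limma) lower with Psmc3ip, and the same 5 passed without wild-type mouse 2. Psmc3 passed also without IL-33 Dusp5-/- array 1 (0.0488) or Dusp5-/- mouse 1 (0.0393). The comparisons of genotype and of treatment share arrays, so their values are not independent.

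The test of the difference between the responses to IL-33 called 0 members and 0% of all genes in limma. At an unadjusted p of 0.05, 0 members were higher and 1 was lower, Psmb1 (-0.38 ± 0.14, adjusted p = 0.86), beside 1.8% and 3.03% of all genes tested. Given a random mouse effect 16 genes were called higher and 10 lower, none of them a member. For Psmb9 the response in Dusp5-/- cells differed from that in wild-type cells by -0.16 ± 0.10, for Psmd7 by 0.24 ± 0.12 and for Psmd5 by 0.02 ± 0.15 (adjusted p = 0.999 each).

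**Figure D4:**
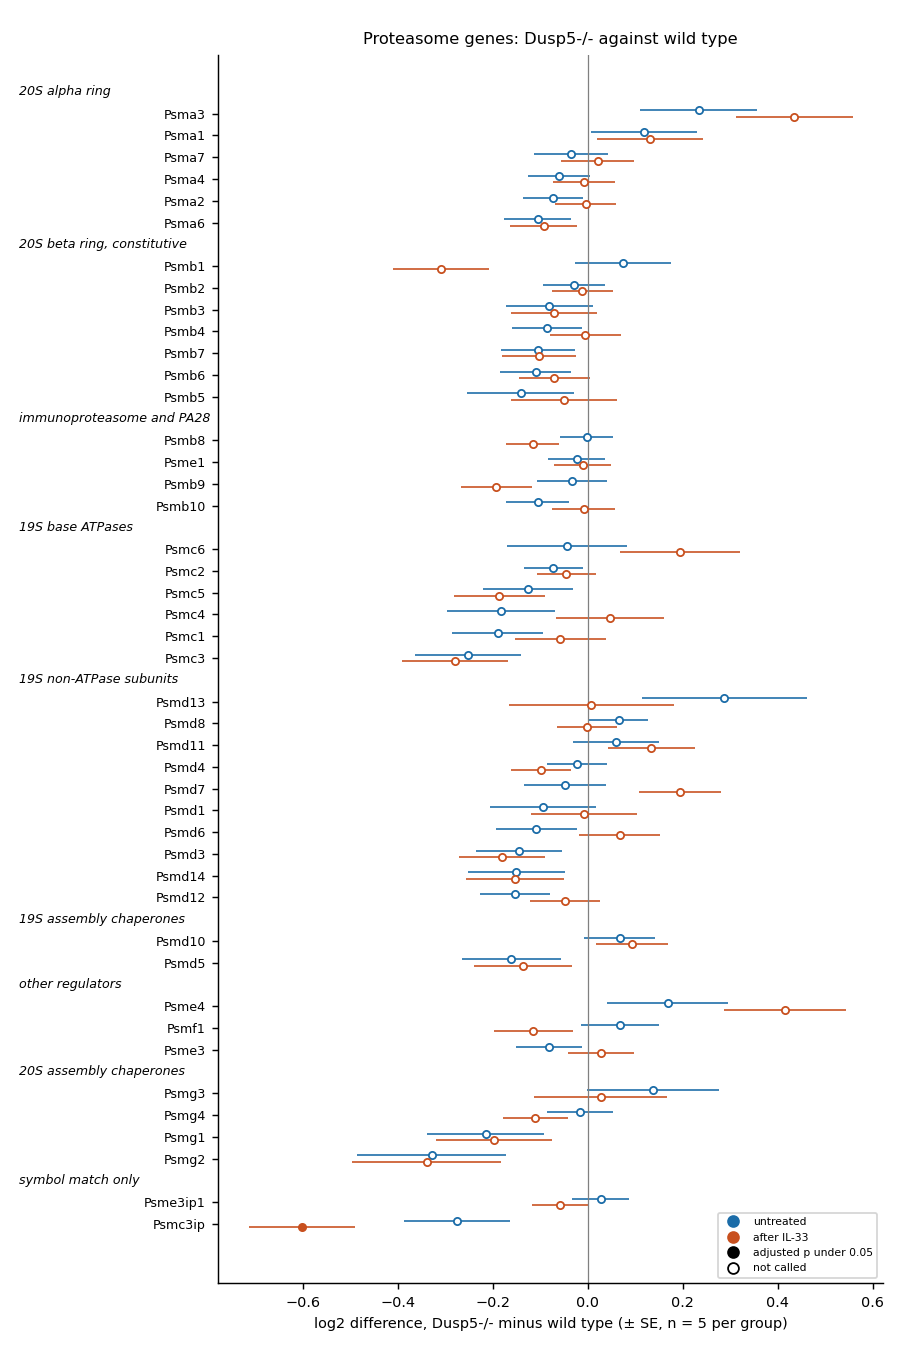
Log2 difference between Dusp5-/- and wild-type arrays (x axis, ± SE of the limma fit, 5 arrays per group) for the 44 tested members by role, untreated (blue) and after IL-33 (orange). Filled points passed an adjusted p of 0.05. Psmc3ip after IL-33 is the only filled point, and Psmg2 lies to the left in both treatments.

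Mice of a group differed in some members more than in others. The pooled SD within groups had a median of 0.131 over the 44 members, against 0.166 over all genes tested. The largest were those of the dim Psmd13 (0.296) and of Psmg2 (0.267), which is bright. Psmg2 stood at 8.10, 7.54, 8.24, 7.71 and 7.98 in untreated wild-type mice 1 to 5 and at 7.98, 7.23, 7.81, 7.35 and 7.55 in untreated Dusp5-/- mice. After IL-33 it stood at 7.86, 7.39, 7.94, 7.64 and 7.70 and 7.76, 7.16, 7.45, 7.20 and 7.26. In both treatments mouse 2 was the lowest of its genotype, and mouse 3 of the wild type and mouse 1 of Dusp5-/- were the highest. Psmg1 and Psmc3, chosen after their values were seen, were also lowest in mouse 2 of each genotype in both treatments, with Psmc3 in untreated Dusp5-/- mouse 4 level with it. The median deviation of the members from their group mean was 0.07 and 0.09 on the arrays of wild-type mouse 1 and 0.10 and 0.13 on those of Dusp5-/- mouse 1. It was -0.07 and -0.05 for wild-type mouse 2 and -0.09 and -0.05 for Dusp5-/- mouse 2, untreated first. The mean of the monocyte, macrophage and dendritic markers tended to run opposite to these differences. On untreated arrays 1 to 5 it was 8.44, 8.68, 8.26, 8.40 and 8.04 in wild-type and 8.31, 8.71, 8.33, 8.78 and 8.91 in Dusp5-/- mice. After IL-33 it was 8.48, 8.67, 8.51, 8.45 and 8.24 and 8.36, 8.71, 8.29, 8.73 and 8.87. Wild-type mouse 2, lowest for Psmg2, Psmg1 and Psmc3, was thus highest for these markers, although wild-type mouse 5, lowest for the markers, was not the highest for Psmg2. Dusp5-/- mice 1 and 3 were lowest for the markers and, in both treatments, highest for Psmg2, Psmg1, Psmc3, Psmb5 and Psmd5 and lowest for Psmb9. Other marker lists varied as strongly with some members, by Pearson r of deviations from group means over 10 mice. Psmg2 gave -0.69 with the monocyte list and 0.73 with the erythroid list (Klf1 and the dim Hba-a1). Psmg1 gave -0.68 with the monocyte list and -0.73 with the mast cell and basophil list. For Psmc3 the monocyte list was the strongest, at -0.78. The monocyte list gave -0.84 with Psmb5, -0.84 with Psmd5, 0.71 with Psmb9, -0.54 with Psmc3ip and -0.38 with Psmb8. The part of any of these cell types in the members' levels was not tested. Arrays numbered 1 and 2 deviated to the same side in both genotypes. Differences between mice thus cannot be told apart from those of a batch sharing the number.

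**Figure D5:**
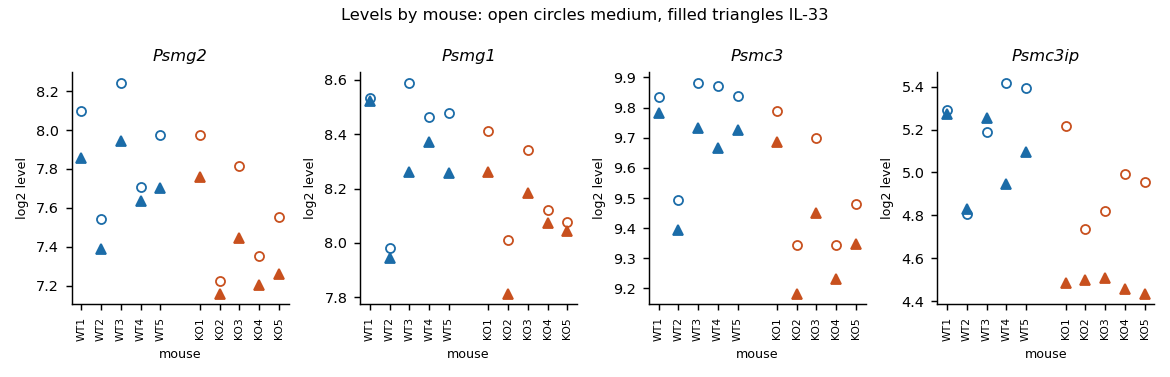
Log2 level (y axis, scale differs between panels) of Psmg2, Psmg1, Psmc3 and Psmc3ip by mouse (x axis, WT1 to WT5 wild type in blue, KO1 to KO5 Dusp5-/- in orange), with open circles for untreated (medium) and filled triangles for IL-33 arrays. Mouse 2 of each genotype is low for Psmg2, Psmg1 and Psmc3, and the 5 treated Dusp5-/- values of Psmc3ip lie together between 4.43 and 4.51.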

How the data were processed

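Labelled cRNA of 20 samples was hybridised to one-colour arrays, and the authors deposited a table of log2 expression values for 20630 probe sets. That the scale is log2 was read from the values (1.27 to 13.99). The method of background correction, summarization and normalization is not stated by any source used here. The deposited values entered the fit unchanged. Gene names came from the platform annotation: 17826 probe sets had 1 symbol, 91 several and 2711 none, and 2 control probe sets were left out. A gene was tested when it exceeded the array's 40th percentile (3.56 to 3.68) on at least 5 arrays.

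All 20 arrays entered limma 3.58.1 (R 4.3.3; lmFit, eBayes, 1 mean per group, 16 residual degrees of freedom). Adjusted p is Benjamini-Hochberg over 11766 genes. The fit was tested on simulated data. Groups came from the treatment and genotype labels, and replicate numbers from the titles. Within a genotype, the untreated and treated array sharing a number deviated together (r of 0.26 to 0.78, all 10 best with their own number), and the series text gives 5 mice per genotype and numbers the samples 1 to 5, so the number was taken as the mouse. The labels give no batch, and this check cannot tell a mouse from a batch that shares its number. Alternatives covered the dim filter, scaling, groups fitted, mouse as a fixed or random block, variance trend, probe set choice, membership, and each array or mouse left out. Named with values were the immunoproteasome members and their counterparts, the 5 largest called changes per comparison and direction, the extremes of each role, untested members and members called for genotype; others were added for their role after their values were seen. The members and lists were chosen with earlier results of these data known.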

Additional observations from a re-analysis of the deposited data

Results flagged for a closer look

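In 176 groups of 5 arrays, the 44 tested members in 4 groups each, 8 arrays stood far from the rest of their group, with a gap above Dixon's critical value of 0.71 of the group's range. Chance alone gives about 1 such array in 20 groups, and 4.55% were found. Untreated wild-type array 2 was the lowest of its group for 3 members. Psmb5 was at 10.39 there, with the nearest other array at 10.71, Psmc3 at 9.49, with the nearest at 9.84, and Psmg1 at 7.98, with the nearest at 8.46. Psmb8 on untreated Dusp5-/- array 2 was at 10.19, with the nearest at 10.34. Psma6 on IL-33 wild-type array 2 was at 11.51, with the nearest at 11.64. Psmd10 on IL-33 Dusp5-/- array 3 was at 8.12, with the nearest at 8.30, and Psma3 on IL-33 Dusp5-/- array 5 at 4.81, with the nearest at 5.01. Psma1 on untreated Dusp5-/- array 4, at 4.97, was the 1 array above its group, with the nearest at 4.76. The cause was not tested.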

How the results depend on the processing

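The called rises and falls of Psmb9, Psmb8, Psmb10, Psmd5, Psmd7, Psmc1, Psmc2, Psmd4, Psma6, Psmd11, Psmd12, Psme3 and Psmd13 with IL-33 passed in both genotypes under each alternative that tested them, and no named value changed direction while called. Over the tested members, the named partner and antigen-processing genes and all alternatives, 107 values lost and 51 gained a call. No call was lost with mouse as a fixed or random block. With each mouse as a fixed replicate block, 8 members in place of 5 fell and 16 in place of 15 rose in wild-type cells, and 10 in place of 8 fell and 20 in place of 17 rose in Dusp5-/- cells, while the falls over all genes went from 26.7% to 37% and from 33.2% to 42%. The random replicate block also called Psmb6 (0.0448 and 0.0084) and, between genotypes after IL-33, Uchl5 (0.0490). Without Psmc3ip, and without Psmc3ip and Psme3ip1 (chosen after seeing the data), 0 members in place of 1 were lower in Dusp5-/- cells after IL-33. With 1 array or mouse left out, this count ran from 0 to 3 (3 without wild-type mouse 2, 2 without Dusp5-/- mouse 1), members higher after IL-33 from 0 to 2, and members lower in untreated Dusp5-/- cells from 0 to 1. Over all genes, the 116 higher and 144 lower in Dusp5-/- cells after IL-33 became 85 and 67 with no dim filter, 165 and 279 when the dim filter used the 60th percentile, 20 and 4 with only the 2 groups fitted and 175 and 339 with mouse as a random block. The cause of these differences was not tested. Dim probe sets limit Psmb1, Psmd13, Psme4 and Psmg3, since the table gives no background level. Psma1 (4.41 to 5.27), Psma3 (4.20 to 5.12) and Psmc3ip (4.43 to 5.42) were also low, near the array medians of 4.25 to 4.32. RNA levels give no measure of assembled proteasomes.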
